A study of Strigamia maritima with 9 samples.

Results

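CopiaMBD1, from a Copia retrotransposon of the centipede *Strigamia maritima*, is a domain of the methyl-CpG binding kind, and its binding to the animal's own DNA was mapped on native and on amplified DNA. All peaks of both CopiaMBD1 lists were taken, 7461 on native DNA and 358 on amplified DNA, of 37836 peaks in the 6 lists of the series. Binding was measured by DNA affinity purification sequencing (DAP-seq), in which a protein made in vitro is offered naked genomic DNA and the fragments it retains are sequenced. The DNA came from adult tissue of the strain whose genome had been sequenced, and was sheared to a mean of 200 bp and ligated to adapters. The 4 libraries used here were CopiaMBD1 fused to HaloTag on native DNA, the HaloTag alone on native DNA, CopiaMBD1 fused to HaloTag on DNA copied by 11 PCR cycles before binding, and the HaloTag alone on such amplified DNA. In all 4, the retained fragments went through 20 more PCR cycles. HaloTag, a tag that forms a covalent bond with its ligand on beads, allows the capture, and the HaloTag-only libraries measure DNA held without the domain. Each group held 1 library, so no difference between native and amplified DNA has a replicate check, no significance test was made, and all values describe these libraries.

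Methyl-CpG binding domains are protein folds known from vertebrates, where they recognise a CG dinucleotide whose cytosines carry a methyl group on both strands. Copia elements are retrotransposons that move by copying their RNA back into DNA, and in arthropods a domain of this kind has been found within some of them. PCR copies the base sequence and not the methyl groups, so amplified DNA keeps the sequence of each site and, by design, lacks its methylation. The methylation of either DNA was not analysed here.

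The 2 calls differed in depth and in fragment length. The native call rested on 2239324 tags at unique positions, the size of the domain library, after its control of 4050757 was sampled down. The amplified call rested on 3685424 tags, the size of its control, after the domain library of 3772201 was sampled down. The amplified call therefore used 1.65 times as many tags. The fragment length to which each tag was extended was 145 bp for native DNA and 130 bp for amplified DNA. Pileup, the number of extended fragments over a peak's summit, is given below as fragments per 1000000 tags used in the call (FPM). FPM is not adjusted for fragment length, and each tag covers more bases where the extension is longer, as on native DNA. Fold enrichment is the authors' ratio of pileup to the local HaloTag-only level, and the −log10 q of each peak is the authors' value.

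Nearly all CopiaMBD1 sites of native DNA were without a call on amplified DNA. Native DNA had 20.8 times as many peaks as amplified DNA, although the amplified call was the deeper one. Of the 7461 native peaks, 7443 had no overlap with an amplified-DNA peak (lost sites) and 18 did by at least 1 bp (kept sites), a kept share of 0.241% (exact Clopper-Pearson 95% interval 0.143 to 0.381). Amplified-DNA peaks covered 0.0326% of the effective genome of 173.6 Mb, and 13 native summits, 0.174% (0.0928 to 0.298), lay inside them. Of the 358 amplified-DNA peaks, the same 18 places made up 5.03% (3.01 to 7.83) and 340 had no native peak (amplified-only sites). Native peaks covered 0.981% of the effective genome, and 15 amplified-DNA summits, 4.19% (2.36 to 6.82), lay inside them. Both summit shares stood above the covered share of the genome, and both rested on few peaks. These intervals cover counting error over peaks only, since each group held 1 library.

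The lost sites were not limited to weak ones. Among native peaks with a fold enrichment above 6.77, the highest of the amplified list, 2 of 489 were kept. Among native peaks with a pileup above 30.9 FPM, again the amplified list's highest, 3 of 270 were kept. By the peaks' own −log10 q, the kept share was 0.207% (0.0251 to 0.745) under 3, 0.209% (0.0678 to 0.486) at 3 to 5, 0.211% (0.0775 to 0.459) at 5 to 10, 0.112% (0.00284 to 0.623) at 10 to 20 and 1.10% (0.302 to 2.80) at 20 and over. The intervals of these 5 classes overlap.

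The strongest lost sites show the size of what was called on native DNA alone. JH431324 (954 to 1150) had a pileup of 27.7 FPM and a fold of 15.7 on native DNA. JH431035 (14533 to 14795) had 20.5 FPM and a fold of 14.4, and AFFK01000617 (412 to 637) had 38.0 FPM and a fold of 14.3. Then came JH430550 (18455 to 18659) with 24.1 FPM and a fold of 13.7, and AFFK01001627 (81 to 284) with 17.9 FPM and a fold of 13.6. The sequences that hold these 5 peaks carried no amplified-DNA peak of CopiaMBD1 at all. The same was true for 6424 of all 7443 lost sites (86.3%, 85.5 to 87.1), so it does not set these 5 apart. The other domains of the family were called against the same native HaloTag-only library. In the same order, native folds there were 17.9, 21.8, 6.52, 13.3 and 5.31 for CopiaMBD2. For CopiaMBD3 they were 8.96, 23.3, 24.7, 16.3 and 3.39. The shares of all native CopiaMBD1 peaks with a peak of these domains are not given here, so this is not read as a trait of these 5.

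The 2 calls had different lower limits. Where the control stood at its lowest level, the smallest pileup called was 8 fragments on native DNA and 12 on amplified DNA. By tags alone, a native pileup of 8 corresponds to 13.2 fragments at the amplified depth. Relative to the genome mean of each list, which takes in both tags and fragment length, the order was the other way. The smallest pileup was 4.28 times the mean on native DNA and 4.35 times on amplified DNA. Of the 7443 lost sites, 7399 (99.4%) had a pileup of at least 4.35 times the native mean. Every native peak called had at least 4.28 times that mean, so this share was high by the native call itself. The amplified control level at the lost sites is not listed, and a site under deeper control needs a higher pileup, so whether each lost site was within reach of the amplified call was not tested.

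**Figure D1:**
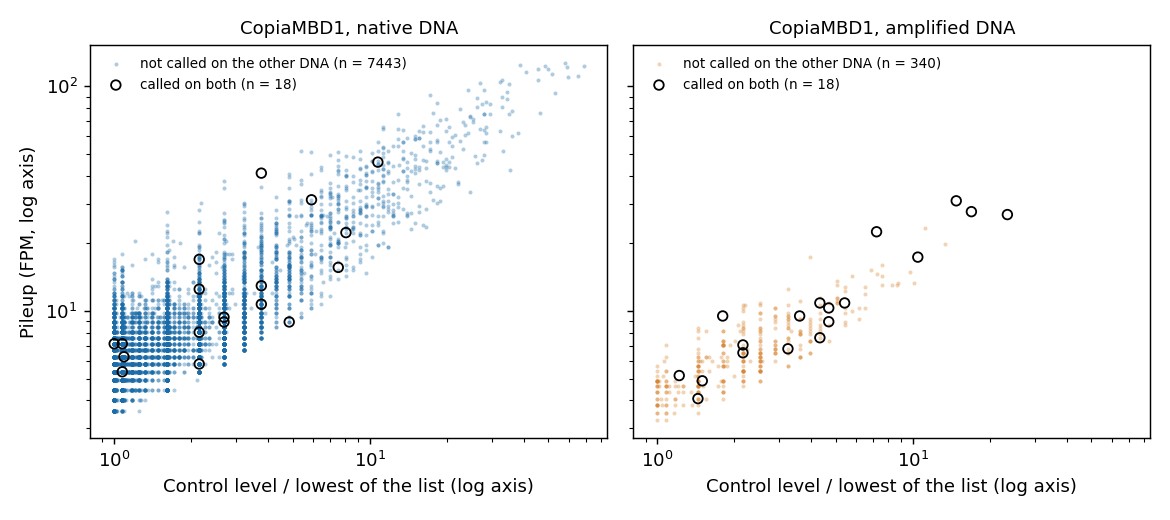
Pileup in FPM (y, log axis) against the local HaloTag-only level relative to the lowest of the list (x, log axis) for each CopiaMBD1 peak on native DNA (left) and amplified DNA (right), with rings around the 18 sites called on both. Native pileups reach 127.7 FPM and amplified ones 30.9 FPM, and the rings lie to the right within the amplified panel, 12 of 18 at 3 times the lowest control level or more.

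The 18 kept sites were wider in median than the lost ones and lay at higher control levels. Kept native peaks had a median width of 243 bp (interquartile range 200.25 to 281.75) against 196 bp (162 to 258) at lost ones. None of the 1841 native peaks of 145 to 161 bp was kept, which allows up to 0.200% by the exact interval, while 7 of 1874 at 196 to 257 bp and 7 of 1875 at 258 bp or more were. A wider peak has more chance to touch another, and the part of width in the kept share was not tested.

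The local control level at kept sites was 2.69 times the lowest of the list in median (2.15 to 4.57), against 1.61 times (1.08 to 2.15) at lost sites. Levels of 3 times the lowest or more occurred at 8 of 18 kept sites and at 15.5% of lost ones. By control level, the kept share was 0.0740% (0.00187 to 0.411) at the lowest level, 0.0820% (0.0169 to 0.240) up to 2 times, 0.465% (0.171 to 1.01) at 2 to 3 times, 0.645% (0.176 to 1.64) at 3 to 5 times, 1.02% (0.212 to 2.96) at 5 to 10 times and 0.403% (0.0102 to 2.23) at 10 times and over. The kept share up to 2 times the lowest level was below that at 5 to 10 times, with intervals that overlap in their ends. The part of control level in the kept share was not tested, and below 3 times the lowest native level 10 of 6300 native peaks were kept (0.159%). When the amplified list was held to the same limit on its own control, 6 of 6300 were.

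The kept sites differed widely in strength. The highest native fold among them was at AFFK01010994, where the native peak (19 to 431) had 41.1 FPM over a control of 3.14 and a fold of 11.6. The amplified-DNA peak inside it (79 to 284) had 27.7 FPM over a control of 12.7 and a fold of 2.16, with summits 6 bp apart. So the pileup was 1.48 times as high on native DNA, and most of the gap between the folds lay in the control level.

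JH430644 was the kept site with the highest amplified-DNA fold. Its native peak (703 to 872) had 17.0 FPM and a fold of 7.76, its amplified-DNA peak (725 to 859) had 9.50 FPM and a fold of 6.02, and the summits were 7 bp apart. The control there was 1.80 FPM on native and 1.35 on amplified DNA, which is 2.15 and 1.80 times the lowest of each list.

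At each of the next kept sites by native fold, named here, FPM and fold were lower on amplified DNA than on native DNA. JH432140 had 7.15 FPM on native DNA (13151 to 13331, fold 5.92) and 7.05 on amplified DNA (13231 to 13361, fold 3.87). AFFK01002590 had 31.3 FPM on native DNA (65 to 318, fold 5.88) and 17.4 on amplified DNA (119 to 248, fold 2.18). AFFK01020698 had 12.5 FPM on native DNA (3770 to 3968, fold 5.77) and 6.51 on amplified DNA (3686 to 3815, fold 3.59), and these 2 peaks shared only 46 bp. JH430183 had 7.15 FPM on native DNA (2376 to 2581, fold 5.64) and 4.07 on amplified DNA (2381 to 2531, fold 3.21).

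The other 12 kept sites had native folds of 2.09 to 4.93. They lay on JH432147 (294023 to 294206), AFFK01009481 (1 to 493), JH429572 (3466 to 3760), JH431879 (516 to 801), AFFK01002998 (83 to 320), JH431254 (42932 to 43148), JH431388 (93640 to 93805 and 112216 to 112419), AFFK01013282 (1026 to 1273), JH430441 (2988 to 3423), JH431593 (103735 to 104002) and JH430333 (1549 to 1817). Some of them were higher on amplified DNA. AFFK01002998 had 13.0 FPM on native DNA and 22.5 on amplified DNA, and AFFK01013282 had 22.3 on native DNA and 30.9 on amplified DNA. AFFK01009481 had 46.0 on native DNA and 26.9 on amplified DNA, over the highest control levels of the 18 sites, 8.98 FPM on native and 17.6 on amplified DNA.

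**Figure D2:**
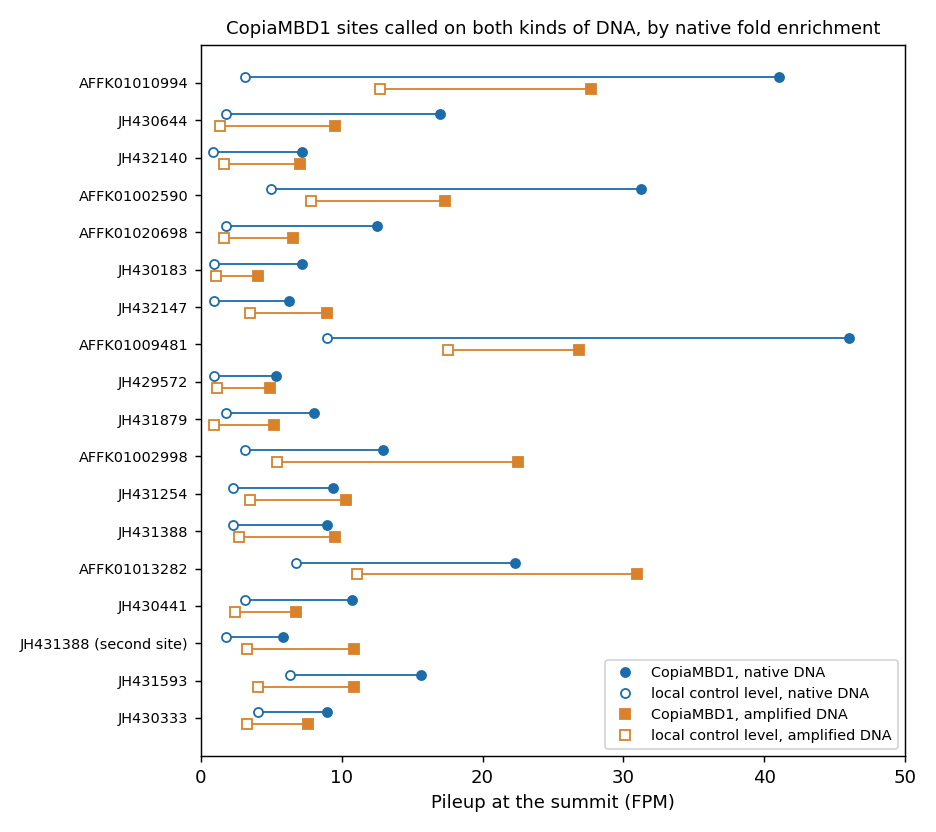
Pileup at the summit in FPM (filled) and local HaloTag-only level (open) at the 18 CopiaMBD1 sites called on both kinds of DNA, native (circles) above amplified (squares), ordered down the page by native fold enrichment. Native pileup in FPM, not adjusted for fragment length, was the higher at 12 of 18 sites. Contig sites with high pileup had high control levels too.

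At kept sites the depth-scaled pileups of the 2 kinds of DNA were within 1.92 times of each other. The ratio of native to amplified FPM had a median of 1.31 and a range of 0.535 to 1.92, and was above 1 at 12 of 18 sites. This ratio is not adjusted for the longer fragment length of native DNA. Relative to the genome mean of each list, the median pileup at kept sites was 12.0 times on native and 12.7 times on amplified DNA. These 2 medians do not pair the sites, and the ratio site by site on this scale is not given here. With 1 library per group, the higher native FPM is not read as a difference between the 2 kinds of DNA. The ratio of the authors' folds, which have a different control in each list, had a median of 1.24 and a range of 0.825 to 5.36. The native peak was the wider one at 18 of 18. The overlap ran from 44 to 206 bp with a median of 135 bp, and at 11 sites it took in the whole of the shorter peak. The summits were 2 to 160 bp apart, with a median of 36 bp, and within 25 bp at 8 sites and within 100 bp at 16. The amplified-DNA summit had the higher coordinate at 13 sites and the lower at 5. The local control levels of the 2 kinds of DNA ranked the 18 sites alike, with Spearman's rho of 0.79. Pileups did so too, with a rho of 0.70, and the folds did so little, with a rho of 0.14. These are descriptions over sites that share their place in the assembly.

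Kept sites on contigs carried more fragments than those on scaffolds. The assembly's sequences have names that begin with AFFK (contigs) or JH (scaffolds). The 6 kept AFFK sites had 12.5 to 46.0 FPM on native DNA and 6.51 to 30.9 on amplified DNA, against 5.36 to 17.0 and 4.07 to 10.9 at the 12 kept JH sites. Their control level relative to the lowest had a median of 4.84 on native DNA and 12.6 on amplified DNA, against 2.15 and 3.43 at the JH sites. Of the 6, 4 began within 100 bp of the contig's first base, as did 229 of 2973 lost AFFK sites (7.70%, 6.77 to 8.72). Whether contig ends or control level have a part in the amplified-DNA call was not tested.

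Peaks of the other domains at the 18 kept sites are given side by side, because they were called against the same HaloTag-only libraries. CopiaMBD2 had a native peak at 14 and an amplified-DNA peak at 2, and CopiaMBD3 had a native peak at 13 and an amplified-DNA peak at 1. The native lists of these domains were long, with 14001 and 15714 peaks, and their amplified-DNA lists held 133 and 169. The matching shares over all native CopiaMBD1 peaks are not given here, so these counts are not read as a trait of kept sites. JH432140 and AFFK01013282 were in no list of the other domains.

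The 340 amplified-only sites were narrower than lost sites and near them in pileup. Their median width was 148 bp (135 to 172), against 196 bp at lost sites. Their median pileup was 6.24 FPM (4.88 to 8.14), against 7.15 FPM (5.81 to 9.38) at lost sites, and within its own list the median fold was 3.52 (2.87 to 4.27) at amplified-only and 4.32 (3.58 to 5.23) at lost sites. The highest folds were at JH431516 (62775 to 62910, fold 6.77, 7.05 FPM), JH431584 (70104 to 70241, fold 6.43, 8.41 FPM) and JH430758 (769 to 915, fold 6.22, 8.14 FPM). JH431594 (10944 to 11142) had a fold of 6.02 and 6.24 FPM, and JH431446 (464857 to 464992) had a fold of 5.88 and 8.14 FPM. None of these 5 overlapped a peak of another domain on either kind of DNA. The matching share over all 340 amplified-only sites is not given here, so this is not read as a trait of them. Other amplified-only sites named below did overlap a native CopiaMBD3 peak, AFFK01014466 (fold 7.14 in that list) and JH431092 (fold 9.97). JH431338, also named below, overlapped no peak of another domain.

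Amplified-only sites lay near a native site no more often than the upper limit of the genome share within the same distance. For 57 of 340 the sequence held no native peak of CopiaMBD1. For the other 283 the gap to the nearest native peak had a median of 18925 bp, and it was within 200 bp at 5, within 1000 bp at 21 (6.18%, 3.86 to 9.29) and within 10 kb at 105 (30.9%, 26.0 to 36.1) of the 340. Counted over all 358 amplified-DNA summits, kept sites included, 10.9% (7.86 to 14.6) lay within 1000 bp and 34.4% (29.4 to 39.5) within 10 kb of a native peak. The share of the effective genome within those distances was at most 7.60 and 40.0%, with stretches past sequence ends counted in. Within 200 bp lay 5.03% (3.01 to 7.83) of the 358 summits and at most 2.59% of the genome. With kept sites included, which overlap a native peak by definition, the summit share thus stood above the genome share within 200 and 1000 bp. Within 10 kb it did not exceed the upper limit of the genome share. For the 340 amplified-only sites alone, the shares by gap were 1.47% within 200 bp, 6.18% within 1000 bp and 30.9% within 10 kb. Each of these was below the upper limit of the genome share. The closest was at JH431338, where the amplified-DNA peak (110311 to 110508, fold 2.25) lay 67 bp from a native one (110576 to 110898, fold 4.96). At AFFK01014466 (2101 to 2298) the gap was 93 bp and at JH431092 (28172 to 28332) 115 bp. These near misses had control levels of 5.77, 5.05 and 2.88 times the lowest on amplified DNA, in that order. Of the strongest 5, JH430758 lay 533 bp from a native peak and the rest 12038 bp or more.

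Native peaks were wider than amplified-DNA peaks beyond the difference in fragment length. No peak was narrower than the fragment length of its list, so widths are given also as the excess over it. The median width was 196 bp (162 to 258) on native DNA and 147 bp (135 to 171.75) on amplified DNA, a difference of 49 bp, while the fragment lengths differ by 15 bp. The median excess was 51 bp (17 to 113) on native DNA and 17 bp (5 to 41.75) on amplified DNA. Peaks of exactly the fragment length made up 9.33% (8.68 to 10.01) of the native list and 17.0% (13.3 to 21.3) of the amplified list. Peaks of at least 2 fragment lengths made up 17.5% (16.7 to 18.4) and 1.68% (0.617 to 3.61). The 358 strongest native peaks by −log10 q, a list as long as the amplified one, had a median width of 241 bp.

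**Figure D3:**
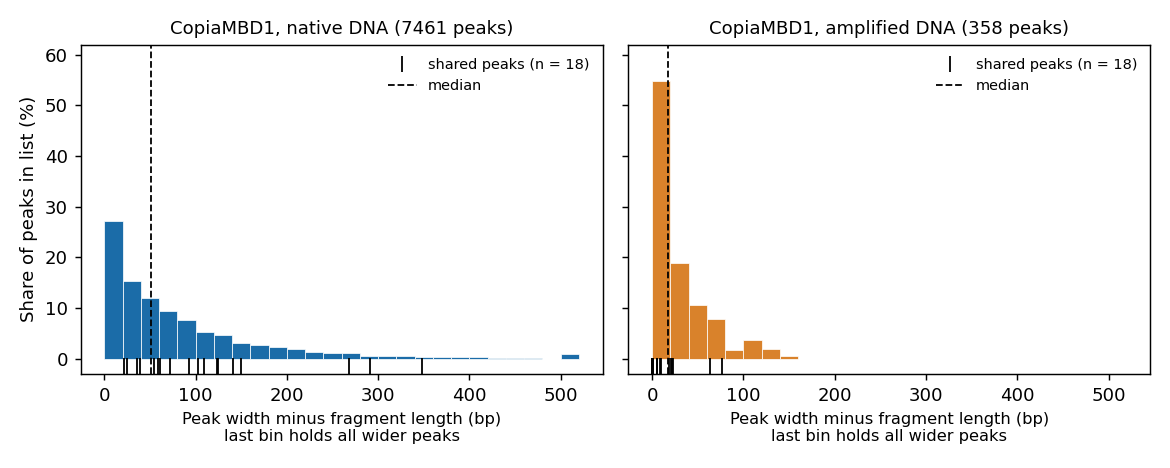
Share of CopiaMBD1 peaks (y) by peak width minus fragment length in 20 bp bins (x) on native DNA (left) and amplified DNA (right), with dashed medians of 51 and 17 bp and ticks for the 18 shared peaks. Amplified-DNA peaks end at an excess of 152 bp, while native peaks run to 1399 bp.

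The widest lost sites were long stretches of scaffold with modest pileup. JH432163 (21247 to 22790) spanned 1544 bp with a pileup of 9.82 FPM at its summit and a fold of 4.58. JH432062 (20143 to 21336) spanned 1194 bp at 8.93 FPM with a fold of 3.48, and JH431986 (15886 to 17063) spanned 1178 bp at 11.2 FPM with a fold of 5.43. Their summits lay 690.5 bp before, 424.5 bp after and 174.5 bp after the middle of the peak.

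Summits sat near the middle of peaks on both kinds of DNA. The median distance from the middle was 22 bp (10 to 42) on native DNA and 21 bp (9.12 to 36.9) on amplified DNA, and within 25 bp of it lay 55.9% (54.8 to 57.1) of native and 57.3% (52.0 to 62.4) of amplified-DNA summits. Summits over 50 bp off the middle made up 19.4% (18.5 to 20.3) of native and 13.4% (10.1 to 17.4) of amplified-DNA peaks. On native DNA they came mostly from wide peaks, 1006 of 1875 among those of 258 bp or more and 148 of 1841 among those of 145 to 161 bp. At kept sites 14 of 18 native summits lay within 25 bp of the middle, and at lost sites 55.9% did (54.7 to 57.0). Amplified-only sites had 57.4% (51.9 to 62.7) there.

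Native sites lay close together and amplified-DNA sites did not. Another native peak within 1 kb was found for 32.2% (31.1 to 33.2) of native peaks, and another amplified-DNA peak within 1 kb for 10 of 358 amplified-DNA peaks (2.79%, 1.35 to 5.08). Among peaks with a neighbour of their own list on the sequence, the median gap was 1320 bp (389 to 4796.5) over 5419 native peaks and 37339 bp (11265 to 114538) over 162 amplified-DNA peaks. A longer list has shorter gaps. With list length made equal by taking the 358 strongest native peaks, 10.6% had a neighbour within 1 kb. The smallest native gap was 63 bp, just over the tag size of 62 bp in the header of that list.

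**Figure D4:**
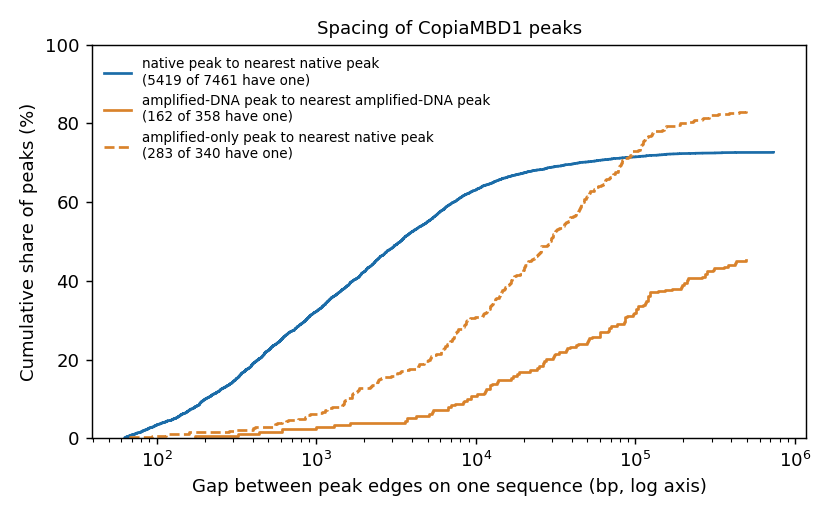
Cumulative share of CopiaMBD1 peaks (y) by the gap to the nearest peak on the same sequence (x, log axis), for native peaks among themselves, amplified-DNA peaks among themselves, and amplified-only peaks to native ones. Curves end below 100% because 2042 native, 196 amplified-DNA and 57 amplified-only peaks have no such neighbour on their sequence.

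Joining peaks of a list that lay within 1 kb of each other gave 6087 native loci and 353 amplified-DNA loci. Of the native loci 5061 held a single peak, 801 held 2, 213 held 3 to 5 and 12 held 6 or more. On amplified DNA 348 held a single peak and 5 held 2. The largest native locus was on AFFK01021150 (1666 to 6052), with 7 peaks of fold 4.18 to 6.47 over 4387 bp and no kept site. Lost and kept sites did not differ in this by more than counting error: 32.2% (31.1 to 33.2) of lost and 5 of 18 kept sites (27.8%, 9.69 to 53.5) had a native neighbour within 1 kb.

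Some scaffolds held many native sites and next to no amplified-DNA site. JH431789 had 61 native peaks from 20879 to 719065, with folds of 2.65 to 6.72, and no amplified-DNA peak. JH432211 had 57 native peaks and 1 amplified-DNA peak (244211 to 244343, fold 5.01). JH431830 had 46 native peaks from 6376 to 386265 and 1 amplified-DNA peak (73979 to 74146, fold 2.19). Neither of these 2 amplified-DNA peaks overlapped a native one, and over all JH scaffolds only 12 of 316 did.

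Scaffolds with the most amplified-DNA sites were others. JH432001 held 9 native peaks and 6 amplified-DNA peaks, JH431683 held 3 and 6, and JH431878, which ties with them, held 16 and 6. None of their 18 amplified-DNA peaks overlapped a native peak. Over all JH scaffolds 12 of 316 amplified-DNA peaks did (3.80%, 1.98 to 6.54), so this count is near the usual share. On JH432001 the native folds were 3.09 to 5.70 and the amplified-DNA folds 2.19 to 4.93.

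The contrast between native and amplified DNA was steeper on contigs than on scaffolds. AFFK contigs held 2979 native and 42 amplified-DNA peaks, 70.9 times as many on native DNA, and JH scaffolds held 4482 and 316, 14.2 times as many. With −log10 q at 10 or above, the AFFK numbers were 772 and 6, a ratio of 129, and the JH numbers were 482 and 13, a ratio of 37.1. At 20 or more they were 283 and 1 on AFFK contigs and 79 and 0 on JH scaffolds. AFFK contigs thus made up 39.9% (38.8 to 41.0) of native peaks and 11.7% (8.59 to 15.5) of amplified-DNA peaks.

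**Figure D5:**
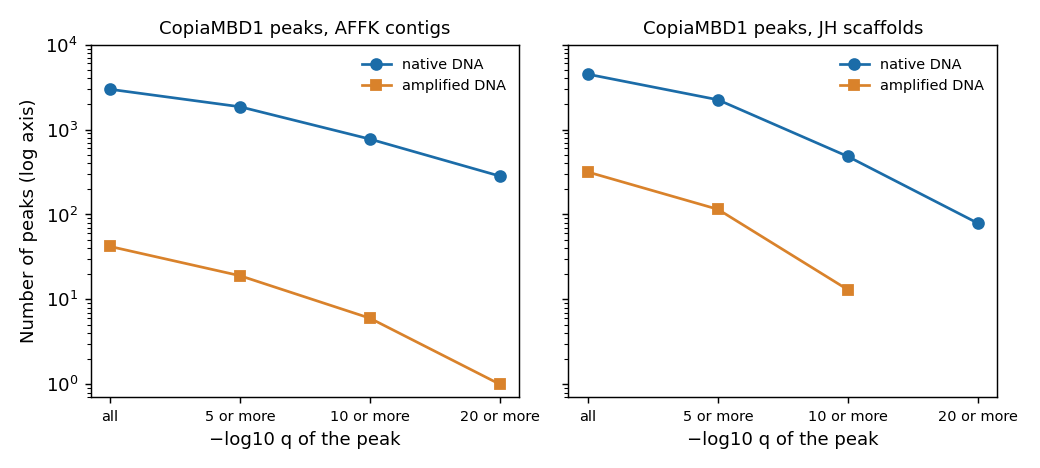
Number of CopiaMBD1 peaks (y, log axis) on native and amplified DNA at rising thresholds of the peak's −log10 q (x), for AFFK contigs (left) and JH scaffolds (right). Native peaks outnumber amplified-DNA peaks at each threshold, from 14.2 times on scaffolds to 283 times on contigs, and the amplified-DNA line on scaffolds ends where no peak is left.

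By class, AFFK contigs held 39.9% (38.8 to 41.1) of lost sites, 6 of 18 kept sites (33.3%, 13.3 to 59.0) and 10.6% (7.53 to 14.4) of amplified-only sites. The kept share of native peaks was 0.201% (0.0739 to 0.438) on contigs and 0.268% (0.138 to 0.467) on scaffolds, a difference within counting error. The share of amplified-DNA peaks with a native peak was 14.3% (5.43 to 28.5) on contigs and 3.80% (1.98 to 6.54) on scaffolds, with intervals that overlap.

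Native peaks on contigs more often lay at raised control levels than those on scaffolds. Levels of 3 times the lowest or more occurred at 24.5% (23.0 to 26.1) of AFFK and 9.62% (8.77 to 10.5) of JH native peaks, and at 15 of 42 AFFK and 27.2% (22.4 to 32.5) of JH amplified-DNA peaks. Its part in the contig share was not tested. Contigs held mostly lone peaks: 1514 of 2016 contigs with a native peak held 1, and 528 of 1374 scaffolds did. With 1 native peak on so many short sequences, gaps describe the longer ones, and the median gap was 524 bp over 1465 AFFK peaks and 1859.5 bp over 3954 JH peaks.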

How the data were processed

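Peaks were called by the authors, per the file headers, with MACS2 version 2.1.0.20150731, 1 library at a time at a q-value of 0.05, with the HaloTag-only library of that kind of DNA as control. The larger library was sampled down and 1 tag was kept per position. The headers name windows of 1 and 10 kb for the local control. Which window, these or a shorter one, set the control level at each peak is not given. Samples were grouped by their titles. The aligner's settings and the genome build are not given in the sources used here. Positions are 1-based, as deposited. The deposited pileup is a coverage signal that is not scaled for depth, the deposited fold enrichment is a ratio to the local control, and the deposited −log10 q is the peak caller's.

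Pileup was divided by the tags used in each call and multiplied by 1000000 (FPM). The control level was recovered as (pileup + 1) / fold − 1, and its lowest level is the genome mean. Overlaps and exact intervals were computed with scipy 1.17.1, pandas 2.3.3 and numpy 2.4.6 under Python 3.11.15, and plots drawn with matplotlib 3.10.9. The code for overlaps, gaps and loci was checked on made-up lists with planted answers. Named peaks are every kept site, the 5 lost and 5 amplified-only sites of highest fold, the 3 widest lost sites, the 3 amplified-only sites nearest a native peak, and the sequences with most peaks. The members and lists were chosen with earlier results of these data known.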

Additional observations from a re-analysis of the deposited data

How the results depend on the processing

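The ratio of native to amplified-DNA peak numbers, 20.8, stayed above 1 under each alternative tried. It was 30.6 at a −log10 q of at least 5, 66 at 10, 64.3 at a fold of at least 5, 17.2 for loci joined over 1 kb, 14.2 on JH scaffolds, 70.9 on AFFK contigs and 24.5 below 3 times the lowest control level, a limit chosen after seeing the data. Limits on q, fold and control were applied to both lists unless said. The kept share of native peaks, 0.241%, was 0.122% at a −log10 q of at least 5, 0.0471% at a fold of at least 5 and 0.0952% at low control, and 1.12% for the 358 strongest native peaks. With the native list alone limited, added after seeing the data, it was 0.268, 0.283 and 0.159% in the order q, fold and control, all within the interval of the main value, so the lower shares come with the shortened amplified list. The share of amplified-DNA peaks with a native peak, 5.03%, was 1.12% against the 358 strongest native peaks and 2.33% at low control. The width difference, 49 bp, was 60.5 bp at a −log10 q of at least 5, 92 bp at 10 and 94 bp for the strongest 358. The AFFK share of native peaks, 39.9%, was 45.3% at a −log10 q of at least 5, 61.6% at 10, 78.5% for the strongest 358 and 35.7% at low control, and that of amplified-DNA peaks, 11.7%, was 31.6% at 10, where 6 of 19 peaks were left. A native neighbour was found for 42.3% of native peaks within 2 kb, 33.3% on JH scaffolds and 10.6% of the strongest 358. The cause of the other moves was not tested. In all, 20 alternative values of these results moved by less than counting error, those with the native list alone limited among them. For the width, counting error was taken as the exact binomial interval of the medians. Under the other overlap definitions, compared after seeing the data, kept sites had a median width of 227.5 to 248 bp and a median control level of 2.69 to 3.76 times the lowest. No paired analysis was possible because each group held 1 library. With 18 kept sites, shares within them are known only to wide intervals.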
